A study of Mus musculus with 90 samples.

Results

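Of 22 hypothalamus libraries, 6 held genes of the choroid plexus at levels far above the other 16, within a series of 90 libraries from 4 tissues. The 6 were WT replicates 1 and 4, UCP1 KO replicates 2 and 3, dKO replicate 1 and FGF21 KO replicate 4, with replicates numbered in the order of deposit. They had been chosen from their own expression, because the mean of a choroid plexus gene list lay above 3 on the log2 CPM scale (CPM, counts of a gene per 1000000 counts of its library). Its members are not named in the sources used here. Values of the 6 against the 16 are therefore a description without a test.

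All mice were male and homozygous for their genotype. WT mice carried neither deletion, UCP1 KO mice lacked uncoupling protein 1, FGF21 KO mice lacked fibroblast growth factor 21, and dKO mice lacked both. The design text once names FGF12 in place of FGF21 for the double knockout. Every group was raised at 30 °C, entered the cold at an age of 10 to 12 weeks, with 12 days spent at 18 °C before 3 weeks at 5 °C, and was killed after 2 to 3 h without food. The hypothalamus groups held 6 WT, 6 UCP1 KO, 5 FGF21 KO and 5 dKO libraries, of which 2, 2, 1 and 1 belonged to the choroid plexus set. Which libraries came from one mouse is not stated. Total counts ran from 39.4 to 50.8 M (median 46.7 M; M stands for 1000000) in the 6 libraries and from 35.5 to 69.9 M (median 43.4 M) in the 16.

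The levels of the targeted genes did not show the deletions in this tissue. Ucp1 lay at 3.55 to 5.63 CPM of total counts in the 11 libraries labelled UCP1 KO or dKO. In the 11 labelled WT or FGF21 KO it lay at 0.762 to 3.54 CPM. It was thus higher, not lower, where the labels name a deletion, and the ranges met closely but did not overlap. Fgf21 had at most 4 counts in any hypothalamus library. In brown fat of the same series Ucp1 lay at 1123 to 1627 CPM in the libraries labelled UCP1 KO or dKO and at 5265 to 10009 CPM in the others. Inguinal fat did not share this direction. There Ucp1 lay at 907 to 1511 CPM in UCP1 KO and 986 to 1481 in dKO. It lay at 124 to 1192 CPM in WT and 7.01 to 922 in FGF21 KO. In brown fat, Fgf21 had 605 to 2137 counts in UCP1 KO, 8 to 67 in WT, 0 to 13 in FGF21 KO and 0 to 1 in dKO. Genotypes below are those of the labels.

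The choroid plexus is a frond of tissue that hangs into the brain ventricles. Its epithelium secretes cerebrospinal fluid by moving sodium, chloride, bicarbonate and water from blood to ventricle, and it forms a barrier with tight junctions around leaky, fenestrated capillaries. The roof of the third ventricle, which carries choroid plexus, lies above the hypothalamus and beside the thalamus and habenula. Transthyretin, the thyroid hormone carrier encoded by Ttr, is among the most abundant products of this epithelium.

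Ttr was higher in all 6 libraries than in any of the 16. Its level was 1621 CPM in WT replicate 1, 1534 in WT replicate 4, 1516 in dKO replicate 1, 1314 in UCP1 KO replicate 2, 1103 in FGF21 KO replicate 4 and 1043 in UCP1 KO replicate 3. In the 16 libraries it ran from 10.3 to 33.3 CPM with a median of 18.3. The levels left a wide gap: the nearest libraries on either side were UCP1 KO replicate 3 at 1043 CPM and UCP1 KO replicate 1 at 33.3 CPM. The fitted difference, with genotype as a covariate, was 6.06 on the log2 scale (SE 0.22), a 66.7-fold higher level. Ttr took 0.104% to 0.162% of the counts of the 6 libraries. In these bulk libraries more cells of a type and more RNA per cell cannot be told apart. Ttr is at chr18:20664209-20674326 (GRCm38.p6).

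Kl encodes α-klotho, a membrane protein of the plexus epithelium that acts as co-receptor for FGF23. It lay between 46.6 and 77.0 CPM (median 61.6) in the 6 libraries and between 6.19 and 9.96 (median 7.52) in the 16, without overlap. The log2 difference was 2.95 (SE 0.08), or 7.74-fold. Folr1, the folate receptor that carries folate across the epithelium, lay between 6.86 and 13 CPM (median 10.0) against 0.789 to 1.88 (median 1.15), a log2 difference of 3.04 (SE 0.10). The order of libraries differed little between the markers: both WT libraries and dKO replicate 1 were the highest 3 of the 6 for Ttr, Kl and Folr1 alike. Kl is at chr5:150952607-150993817 and Folr1 at chr7:101858331-101870788 (GRCm38.p6). In the 68 libraries of the other 3 tissues the markers were near absent, with maxima of 4.04 CPM for Ttr in brown fat, 1.70 CPM for Kl in muscle and 0.962 CPM for Folr1 in brown fat. The label therefore matched the 3 marker genes, on which the choice itself may have rested in part.

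**Figure D1:**
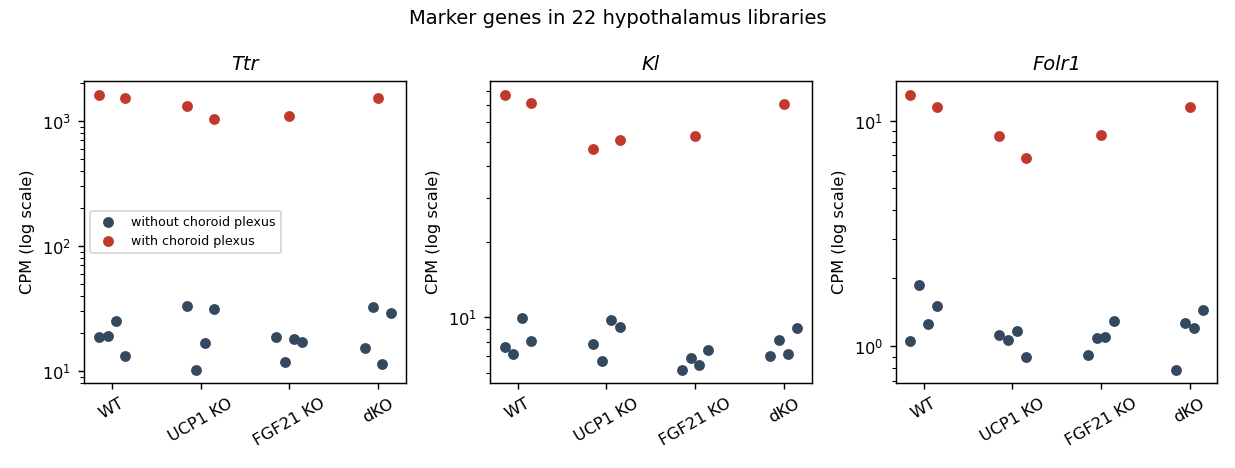
Levels of Ttr, Kl and Folr1 in CPM (log scale) in each of the 22 hypothalamus libraries, by genotype; each point is 1 library, red for the 6 with choroid plexus and dark blue for the 16 without. Ttr separates 1043 to 1621 CPM from 10.3 to 33.3 CPM, and every genotype has libraries on both sides.

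Across all 18020 genes tested, 61 were at least 2-fold higher in the 6 libraries with no overlap with the 16, which is 0.339% of the genes. None was at least 2-fold lower without overlap (0.00%). Because the libraries were chosen on genes of this kind, nothing is read from the share itself. At any fold, 123 genes (0.683%) were higher without overlap and 2 (0.0111%) were lower. The 61 genes together took 2172 to 3290 CPM in the 6 libraries and 287 to 370 CPM in the 16. Without Ttr, the sums were 948 to 1669 CPM and 277 to 353 CPM. The median log2 difference over all genes was -0.003.

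The 103 genes of 8 lists written for the plexus epithelium had 100 tested members, of which 42 were higher without overlap and 29 of these at least 2-fold. Their median log2 difference was 0.46. Over all 18020 tested genes the shares were 0.683% and 0.339%. The lists were written with earlier results of these data known, and the libraries were chosen on genes of this kind. These counts and those of each list below are therefore a description. The 61 called genes lay on 19 chromosomes, and 58 of them matched an entry of the RefSeq gene table.

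**Figure D2:**
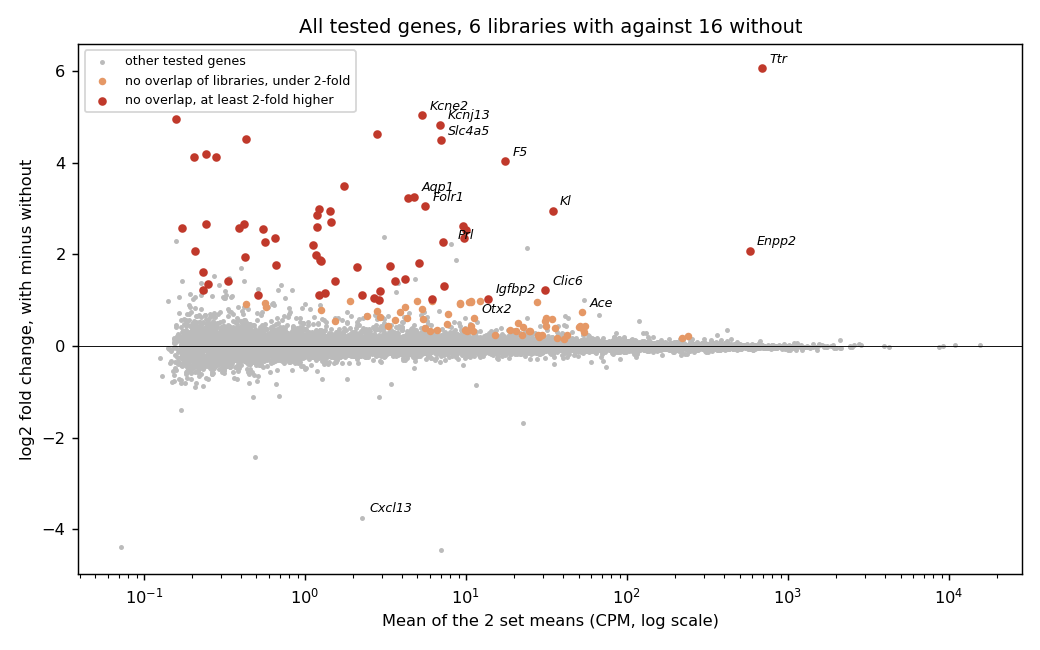
Log2 fold change (6 libraries with minus 16 without) of every tested gene against its mean level in CPM (log scale; mean of both set means). The 61 genes in dark red are at least 2-fold higher without overlap of libraries, the orange ones are higher without overlap by less than 2-fold, and no gene was at least 2-fold lower without overlap.

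Among genes with a mean of at least 1 CPM, the largest differences after Ttr were those of Kcne2 and Kcnj13, both genes of ion transport. Of 18 listed genes of ion and water transport 11 were higher without overlap and 8 of these at least 2-fold, with a list median of 0.49. Kcne2, a potassium channel subunit on the ventricular side of the epithelium, lay at 8.02 to 12.95 CPM (median 10.4) against 0.168 to 0.515 (median 0.295), a log2 difference of 5.04 (SE 0.13). Kcnj13, the inward rectifier Kir7.1, had 10.2 to 17.1 CPM (median 13.2) against 0.170 to 1.55 (median 0.412), a difference of 4.83 (SE 0.25). The highest value of Kcnj13 among the 16 was that of UCP1 KO replicate 5. Slc4a5, a sodium bicarbonate cotransporter, had 9.73 to 18.8 CPM (median 12.8) against 0.365 to 0.895 (median 0.606), a difference of 4.49 (SE 0.11). For none of Kcne2, Kcnj13 and Slc4a5 did a library of the 16 come near the lowest of the 6.

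Aqp1, the water channel of the ventricular membrane, had 7.20 to 9.89 CPM (median 8.59) against 0.453 to 1.29 (median 0.953), a log2 difference of 3.25 (SE 0.10). Abca4, a lipid transporter best known from photoreceptors, differed by 2.61 (SE 0.08), the carbonic anhydrase Car12 by 2.52 (SE 0.18) and the osmosensitive cation channel Trpv4 by 1.80 (SE 0.09). For Car12, WT replicate 5 stood above the rest of the 16 at 7.34 CPM, still under the lowest of the 6 at 12.3 CPM. Clic6, an intracellular chloride channel protein, had 36.2 to 50.1 CPM against 15.3 to 25.2 and differed by 1.21 (SE 0.09). Widely expressed genes of ion transport differed little. The sodium pump subunit Atp1b1 had a log2 difference of 0.04 with overlapping libraries, and the sodium-potassium-chloride cotransporter Slc12a2 had 0.29, also overlapping. The anion exchanger Slc4a2 (0.44), the potassium chloride cotransporter Slc12a4 (0.25) and the calcium pump Atp2b3 (0.21) were higher without overlap by less than 2-fold.

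Among secreted proteins, 6 of 16 listed genes were higher without overlap and 5 of these at least 2-fold, with a list median of 0.60. F5, coagulation factor V, had 18.1 to 42.4 CPM (median 34.4) against 1.48 to 2.74 (median 1.96), a log2 difference of 4.03 (SE 0.13). Enpp2, the enzyme autotaxin that makes lysophosphatidic acid, had 632 to 1193 CPM (median 944) against 198 to 259 (median 218), a difference of 2.07 (SE 0.08). Enpp2 had a high level in both sets, and the lowest of the 6 libraries was still above the highest of the 16. The gene listed as 1500015O10Rik, which the reference table names Ecrg4, differed by 2.35 (SE 0.11). Sostdc1, an antagonist of BMP and Wnt signals, differed by 2.27 (SE 0.10), and Igfbp2, a carrier of insulin-like growth factors, by 1.03 (SE 0.08). Igf2, a growth factor made by plexus and meninges, had 59.7 to 84.0 CPM against 27.8 to 64.8, and overlapped through UCP1 KO replicate 5 alone, since the next of the 16 was at 44.7 CPM. Clusterin (Clu, 0.01) and cystatin C (Cst3, -0.08), secreted by many brain cells, had overlapping libraries.

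The transport of nutrients gave fewer differences. Of 20 genes 5 were higher without overlap and 2 of these at least 2-fold, with a median of 0.33. Steap1, of the STEAP family of metalloreductases, had 1.97 to 3.63 CPM against 0.128 to 0.529, a log2 difference of 2.95 (SE 0.16). Slc16a8, a lactate transporter of plexus and retinal pigment epithelium, had 0.224 to 0.382 CPM against 0 to 0.0267, close to the limit of detection. The glucose transporter Slc2a12 (0.96), the copper transporter Slc31a1 (0.55) and the thyroid hormone transporter Slco1c1 (0.37) were higher without overlap by less than 2-fold. The sulfate transporter Slc13a4 differed by 1.88 but overlapped, with UCP1 KO replicate 5 at 10.0 CPM among the 16 and UCP1 KO replicate 3 at 9.70 CPM among the 6. Slc46a1, the proton-coupled folate transporter, differed by 0.01.

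Of the tight junction and keratin genes, 4 of 9 tested members were at least 2-fold higher without overlap. Cldn2, the cation-permeable claudin of leaky epithelia, had 6.00 to 10.1 CPM (median 7.67) against 0.423 to 1.26 (median 0.844), a log2 difference of 3.23 (SE 0.15). Cldn1 differed by 1.74 (SE 0.11), and the simple-epithelium keratins Krt18 and Krt8 by 1.21 (SE 0.11) and 1.15 (SE 0.15). Ocln and Tjp1, junction genes shared with the endothelium, differed by 0.18 and 0.04 with overlapping libraries.

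Receptors of the plexus showed small differences. Ace, angiotensin-converting enzyme, was the 1 of 9 tested genes higher without overlap, at 56.5 to 77.1 CPM against 35.7 to 44.3 (log2 difference 0.73, SE 0.05). Lepr, the leptin receptor, had 6.10 to 10.2 CPM (median 8.47) against 4.11 to 7.87 (median 4.93) and a log2 difference of 0.76 (SE 0.10). Lepr overlapped through UCP1 KO replicate 5 among the 16 at 7.87 CPM, and the next was at 5.69 CPM. Prlr, the prolactin receptor, had 45.9 to 56.7 CPM against 26.6 to 47.9 and a difference of 0.62. Htr2c, the serotonin receptor of plexus and hypothalamic neurons, differed by 0.19 with overlap. Lepr, Prlr and Htr2c are also read as hypothalamic receptors of energy balance, and were the largest 3 differences among the 29 tested receptors of that kind, which had a median of -0.004.

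Transcription factors of the dorsal midline and of the plexus gave 3 of 9 tested genes higher without overlap. Gmnc, a regulator of multiciliated cells, differed by 1.73 (SE 0.13) and the homeobox gene Msx1 by 1.47 (SE 0.12). Otx2, the homeobox factor that the plexus epithelium needs for its development and upkeep, had 10.9 to 15.99 CPM (median 13.3) against 6.36 to 10.3 (median 9.37), a difference of 0.60 (SE 0.08). Foxj1, the master regulator of motile cilia, differed by 0.11 with overlap. Of 16 further plexus genes 9 were higher without overlap, led by Tmem72 at 4.61 (SE 0.15), Prr32 at 2.70, Oca2 at 2.56, Wdr86 at 2.20 and Pon3 at 1.05. The collagens Col8a2 and Col8a1 differed by 0.99 and 0.93.

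To show the start of genes that were high together, the 250 bases before a RefSeq start (GRCm38.p6) are given 5′ to 3′. The genes are Kl (chr5:150952357-150952606, plus strand), Kcnj13 (chr1:87394730-87394979, minus strand) and Abca4 (chr3:122044210-122044459, plus strand). For Abca4 the start used lies inside the span of the gene, which begins at chr3:122043891. Capitals mark the letters TAATCC or their reverse complement GGATTA, the core bound by OTX-type homeobox factors, searched on both strands.
Kl: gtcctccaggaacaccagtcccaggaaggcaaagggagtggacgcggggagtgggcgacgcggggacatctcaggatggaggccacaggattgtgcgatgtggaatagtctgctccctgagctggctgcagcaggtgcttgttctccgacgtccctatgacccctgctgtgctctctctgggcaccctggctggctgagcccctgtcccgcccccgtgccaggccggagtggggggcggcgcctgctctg
Kcnj13: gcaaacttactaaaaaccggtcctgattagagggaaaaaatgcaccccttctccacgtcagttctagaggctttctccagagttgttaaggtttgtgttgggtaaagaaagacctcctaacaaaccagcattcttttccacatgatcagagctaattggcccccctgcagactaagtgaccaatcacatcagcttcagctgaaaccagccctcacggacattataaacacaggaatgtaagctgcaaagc
Abca4: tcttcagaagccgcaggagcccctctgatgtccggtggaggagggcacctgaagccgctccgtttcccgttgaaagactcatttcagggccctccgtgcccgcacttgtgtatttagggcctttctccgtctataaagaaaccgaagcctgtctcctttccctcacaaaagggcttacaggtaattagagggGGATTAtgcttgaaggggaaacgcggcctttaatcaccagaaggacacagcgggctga
Of these 3 windows only that of Abca4 holds the letters, as GGATTA starting 58 bases before the start. Promoters were found for 44 of the 61 genes, 53 windows in all, of which 3 (5.66%) hold the letters, those of Abca4, C1qtnf5 and Rbm47. The share was 6.25% over all 32851 windows of the table and 5.22% over those of tested genes. A match or its absence is a description of the letters in a window and says nothing about binding.

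Outside the lists lay 32 of the 61 genes, with log2 differences from 1.01 to 4.52 and a median of 1.96. Of these, 16 had a mean of at least 1 CPM in the 6 libraries. Igfn1 had 2.11 to 4.89 CPM against 0.145 to 0.386, a difference of 3.48 (SE 0.14). Tns4, an adhesion protein of the tensin family, differed by 2.86 (SE 0.16), and Slc24a5, a potassium-dependent sodium calcium exchanger of pigment cells, by 2.59 (SE 0.17). AK013627, known by its sequence name alone, differed by 2.98 (SE 0.26). The collagen-processing enhancer Pcolce had 8.66 to 12.6 CPM against 3.06 to 5.73, and the semaphorin Sema3b 7.03 to 9.47 against 2.70 to 5.20. At lower levels, Tmprss11a had 0.474 to 1.16 CPM against 0 to 0.117, Defb11 had 0.302 to 0.593 against 0 to 0.0781 and Sult1c2 had 0.192 to 0.544 against 0 to 0.0782. C1qtnf5 (log2 difference 4.12) shares its locus with Mfrp, a gene of the same epithelium, so that the counts of both are uncertain.

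A further 62 genes were higher without overlap by less than 2-fold, with log2 differences from 0.16 to 0.99, 13 of them on the plexus lists. Chosen after their values were seen, Cpt1a, the gate of mitochondrial fatty acid entry, had 44.4 to 47.0 CPM against 36.3 to 40.6 (log2 difference 0.24), Acacb differed by 0.24, Acad8 by 0.24 and Acaa2 by 0.23. Only 2 genes were lower without overlap, both by a small amount. Gnao1, the neuronal G protein subunit, had 681 to 695 CPM against 695 to 742 (log2 difference -0.05, SE 0.02), and Tmie had 27.2 to 28.6 against 28.6 to 33.4 (-0.12, SE 0.03).

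Kl is also listed among genes of FGF signalling, and as a plexus marker it may have been part of the choice of libraries. Of 17 tested genes of this pathway only Kl was higher without overlap, and the median was -0.01. Klb, the co-receptor that FGF21 itself uses, had a mean of 0.330 CPM in the 6 libraries and 0.374 in the 16. The receptors Fgfr1 and Fgfr2 differed by 0.04 and 0.12, with overlapping libraries. Among 13 tested genes of thyroid hormone transport and action, Ttr and Slco1c1 were higher without overlap. The deiodinase Dio2 differed by 0.07, with overlapping libraries.

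**Figure D3:**
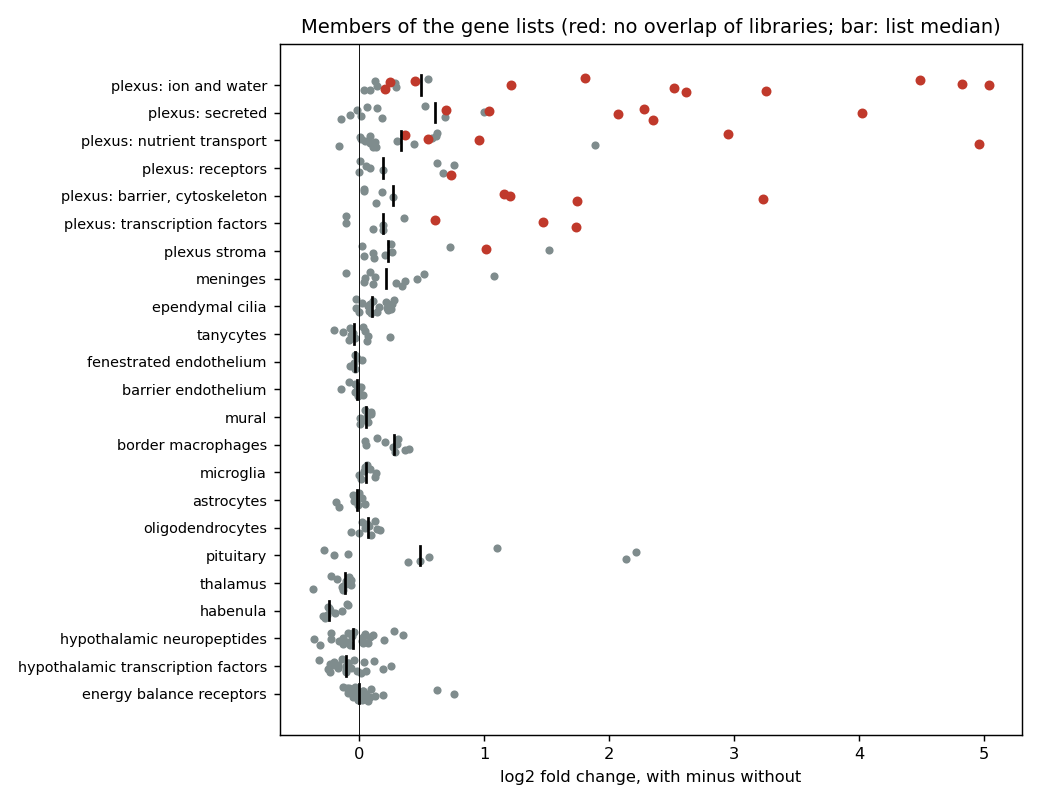
Log2 fold change (6 libraries with minus 16 without) of the tested members of 23 gene lists; each point is 1 gene, red where no library of the 16 reached any of the 6, and the black bar is the list's median. The red points lie on the plexus lists except for Lum among the stroma genes.

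The lists of stroma, endothelium, mural cells, microglia and border macrophages held 1 gene without overlap between the sets. Of 10 stromal fibroblast genes only Lum, a small proteoglycan of connective tissue, was higher without overlap (3.87 against 1.94 CPM in the means, log2 difference 1.01), and the list median was 0.23, with all 10 differences positive. None of the 6 genes of fenestrated endothelium was higher without overlap (median -0.03). Plvap, which forms the diaphragms of fenestrated capillaries, had 6.75 to 8.43 CPM against 6.54 to 9.24. For endothelium of the blood-brain barrier (10 genes), mural cells (8) and microglia (8) the medians were -0.02, 0.05 and 0.05, with 0 genes higher without overlap in each. The 10 tested genes of border macrophages had a median of 0.28, all positive and none without overlap. The medians of stroma and border macrophages lay near those of the plexus receptors (0.19), transcription factors (0.19) and barrier genes (0.27), which held genes without overlap. The summed level of the border macrophage genes was 12.1 to 22 CPM in the 6 libraries and 10.1 to 16.7 CPM in the 16.

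The lists for cells lining the ventricle held no gene without overlap. Outside these lists, Gmnc, the regulator of multiciliated cells given above, was higher without overlap (log2 difference 1.73). So was Drc7, at 10.6 to 16.5 CPM against 5.95 to 9.17 (0.97). The 18 genes of motile cilia, which mark ependymal cells, had a median of 0.10 and a largest difference of 0.27 for Spag16, and their sum was 279 to 332 CPM against 246 to 319. The 12 tanycyte genes, of the glia lining the floor of the third ventricle, had a median of -0.04. Rax, which marks tanycytes, had means of 0.664 and 0.767 CPM. Medians were -0.02 for astrocytes and 0.07 for oligodendrocytes.

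Neuronal genes of the hypothalamus overlapped between the sets, with small differences. Of 22 hypothalamic neuropeptide genes none was higher or lower without overlap (median -0.05), and their sum was 841 to 984 CPM against 827 to 1306. Pmch, the precursor of melanin-concentrating hormone, had 296 to 394 CPM against 285 to 555, and Hcrt, the precursor of the orexins, 37.2 to 50.7 against 40.9 to 90.6. The 24 transcription factors that mark hypothalamic regions had a median of -0.11, with 6 positive differences and none without overlap. All 22 neuropeptide genes had counts in all 22 libraries.

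Neighbouring regions were present in both sets. The 10 habenula genes were all lower in the 6 libraries in the fitted difference (median -0.24) and all overlapped. Gpr151, a receptor nearly confined to the habenula, had 17.9 to 35.6 CPM against 16.1 to 45.6. The 12 thalamus genes were likewise all lower (median -0.12), and their sum was 1527 to 1821 CPM against 1470 to 2055. Meningeal genes had a median of 0.21 with none of 12 without overlap. Their sum was 349 to 690 CPM in the 6 and 288 to 1611 in the 16, where the highest was UCP1 KO replicate 5. Their part in the differences above was not tested. Without UCP1 KO replicate 5 and dKO replicate 1, the highest libraries for these genes, 65 genes were at least 2-fold higher without overlap, and Ttr differed by 6.01.

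Prl, Gh and Neurod6 led the lists written for tissue next to the hypothalamus. The 9 tested pituitary genes had a median of 0.49, led by Prl (2.22) and Gh (2.14), the hormones prolactin and growth hormone, whose levels were high in single libraries of both sets. The 11 genes of cortex and hippocampus had a median of 0.20, led by the neuronal factor Neurod6 (1.37), which was high in UCP1 KO replicate 2, FGF21 KO replicate 4 and WT replicate 5. Of 10 genes of striatum and septum, Ppp1r1b, the dopamine-regulated phosphatase inhibitor DARPP-32, was higher without overlap at 32.6 to 38.9 CPM against 21.3 to 31.4 (log2 difference 0.44), and the median was -0.02. The 3 tested pineal genes and the 3 tested blood genes had medians of -0.50 and -0.40, led by Tph1 (-1.10) and Alas2 (-0.49), all with overlap. The 11 immediate early genes, a readout of recent neuronal activity, had a median of 0.02. Of 10 genes of insulin-like growth factor signalling Igfbp2 alone was higher without overlap, and the median was 0.07.

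The difference is given here within each genotype as a description, since the choice of libraries used genes of this kind. Within WT the mean of Ttr was 1577 CPM in the 2 libraries and 19.1 ± 4.82 CPM (SD, n = 4) in the rest, a log2 ratio of 6.37. The ratio was 5.69 within UCP1 KO, 6.11 within dKO and 6.08 within FGF21 KO. For Kl the ratios were 3.18, 2.55, 3.17 and 2.96 in the same order. For Kcne2 they were 5.67, 4.54, 5.30 and 4.71, and for Enpp2 2.39, 1.71, 2.30 and 1.86. The UCP1 KO ratio was the smallest for these genes. With 1 or 2 choroid plexus libraries in a genotype, a difference between genotypes in these ratios was not tested.

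Levels of the called genes varied less in proportion to Ttr than by themselves. The libraries were chosen on genes of this kind, and the genes of a library share its scaling. The ratios are therefore a description without a test. For each of the 42 called genes other than Ttr with a mean of at least 1 CPM, the level above the mean of the 16 libraries was divided by the same excess of Ttr. Kl added 40.1 ± 4.99 CPM per 1000 CPM of added Ttr (SD, n = 6 libraries), Folr1 6.52 ± 0.735, Kcnj13 9.63 ± 1.07 and Aqp1 5.80 ± 0.517. These values are not corrected for gene length and are for use within a gene only. The coefficient of variation of this ratio over the 6 libraries had a median of 16.3% (range 3.90% to 38.1%), against 26.5% for the added CPM itself. It was lower for the ratio in 39 of the 42 genes. The added Ttr varied by 18.1%.

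Igfbp2 had the steadiest ratio, 7.11 ± 0.278, and Clic6 followed Ttr closely at 18.4 ± 1.38. UCP1 KO replicate 2 stood below the others: its ratio was the lowest of the 6 in 25 of 42 genes, and its median relative ratio was 0.820 of the mean over libraries, where the other 5 had 1.02 to 1.08. In that library Enpp2 added 318 CPM per 1000 CPM of Ttr, against 549 to 607 in the other 5, and F5 12.4 against 23.9 to 27.0. Aqp1 did not share this pattern, with 5.63 in that library and 5.36 to 6.70 in the rest.

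**Figure D4:**
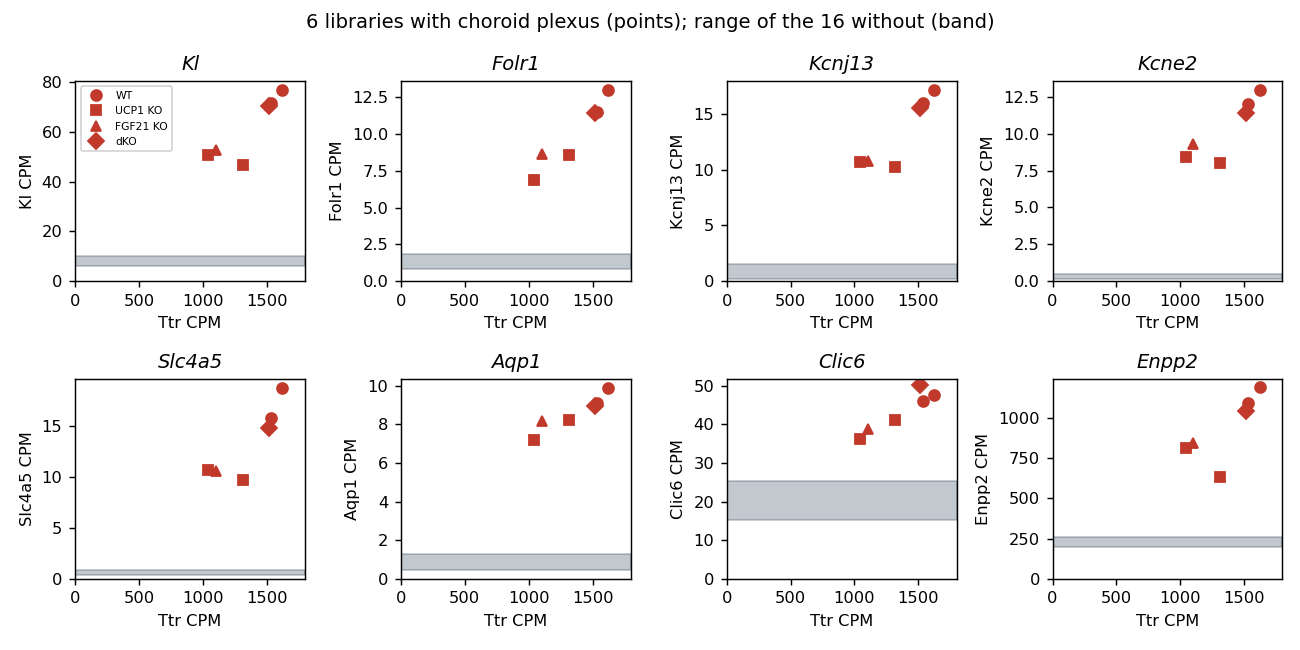
Level of 8 plexus genes in CPM against that of Ttr in CPM in the 6 libraries with choroid plexus (points, shaped by genotype); the grey band is the range over the 16 libraries without. Both WT libraries and the dKO library lie at the upper right of every panel, and UCP1 KO replicate 2, at 1314 CPM of Ttr, has the lowest level of Kl, Kcnj13, Kcne2, Slc4a5 and Enpp2.

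Inside each set the relation of the markers is given as a description without a test, since the libraries were chosen on genes of this kind. On log2(CPM + 0.1), Ttr and Folr1 had Pearson's r = 0.948 and Spearman's rho = 0.943 over the 6 libraries, and Ttr and Kl had r = 0.831 and rho = 0.829. Without the 2 libraries farthest from the median of Ttr, r was 0.999 for Folr1 and 0.987 for Kl. Over the 16 libraries Ttr and Kl had r = 0.519 and rho = 0.488, and Ttr and Folr1 had r = 0.0577 and rho = 0.135. There the values of r without the 2 farthest libraries were 0.509 and 0.0425. The genes of a library share its depth and its scaling.

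Genotype, which the choice of libraries did not use, was compared with and without account of the choroid plexus set. With all 22 libraries and no covariate, edgeR's quasi-likelihood test at a BH adjusted p under 0.05 called 10 genes in UCP1 KO against WT (0.0555% of those tested), 1 in FGF21 KO (0.00555%) and 10 in dKO (0.0555%). None of the 61 genes was among them, and none had an unadjusted p under 0.05. DESeq2 called none of the 61 either. The FGF21 KO and dKO counts moved with single libraries. Without dKO replicate 5 the FGF21 KO contrast had 16 calls, and without WT replicate 1 it had 0. Without dKO replicate 1 the dKO contrast had 5. In UCP1 KO, leaving out each library in turn gave 7 to 12 calls. The standard error of the log2 fold change had a median of 0.71 over the 61 genes in UCP1 KO against WT, 0.76 in FGF21 KO and 0.73 in dKO, against 0.0634, 0.0663 and 0.0660 over all genes.

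With the set as a covariate the median SE of the 61 genes was 0.21, 0.22 and 0.22, and in the 16 libraries alone it was 0.25, 0.25 and 0.24 over the 44 of them tested there. The biological coefficient of variation over all genes was 0.0930 without and 0.0810 with the covariate. Because the set was chosen on genes of this kind, a smaller SE for the 61 genes in these fits was fixed in advance. Ttr shows the change in a single gene. In FGF21 KO against WT its log2 fold change was -1.20 (SE 1.85) in all 22 libraries, -0.35 (SE 0.30) with the covariate and -0.22 (SE 0.41) in the 16. In UCP1 KO against WT it was -0.40 (SE 1.72), -0.01 (SE 0.28) and 0.26 (SE 0.40). In dKO it was -0.75 (SE 1.83), 0.08 (SE 0.30) and 0.20 (SE 0.40). Every one of these differences was smaller than 2 standard errors, and none was called.

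None of the 61 genes was called with the covariate either, where 11, 9 and 2 of them (18.0%, 14.8% and 3.28%) had an unadjusted p under 0.05 in UCP1 KO, FGF21 KO and dKO. Over all 18020 genes in the same fit, 1038, 512 and 500 did (5.76%, 2.84% and 2.77%). The shares depended on the covariate. With log2 Ttr in place of the set, 9, 2 and 2 of the 61 did (14.8%, 3.28% and 3.28%), against 5.68%, 2.78% and 2.78% of all genes. In that fit Ttr, 1 of the 61, was tested with its own level as covariate. In the 16 libraries 3, 2 and 0 of 44 did (6.82%, 4.55% and 0%), against 5.16%, 2.40% and 2.07% of all genes. The set and the 61 genes were chosen from levels in these same libraries. The p-values and shares of the 61 genes in each of these fits are therefore a description. The shares were not compared by a test. Folr1 came nearest in UCP1 KO with the covariate, at a log2 fold change of -0.54 (SE 0.13) and a BH adjusted p of 0.393 by edgeR's quasi-likelihood test. In the 16 libraries its value was -0.41 (SE 0.20). Kl in FGF21 KO had -0.38 (SE 0.12) with the covariate and -0.28 (SE 0.12) in the 16, with BH adjusted p of 0.9997 and 1 by edgeR.

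Over all genes, the covariate moved the calls little: 9 (0.0499%), 1 (0.00555%) and 10 (0.0555%) genes were called, all of them among those called without it. The 1 call lost was Trh in UCP1 KO, the precursor of thyrotropin-releasing hormone, at a log2 fold change of 0.48 in both fits and a BH adjusted p of 0.0343 and 0.0506 by edgeR. In the 16 libraries 6 (0.0335%), 0 (0.00%) and 6 (0.0335%) of 17905 genes were called, again all shared, with 924, 430 and 370 genes at an unadjusted p under 0.05. None of the genes called in the 22 libraries was on a plexus list.

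**Figure D5:**
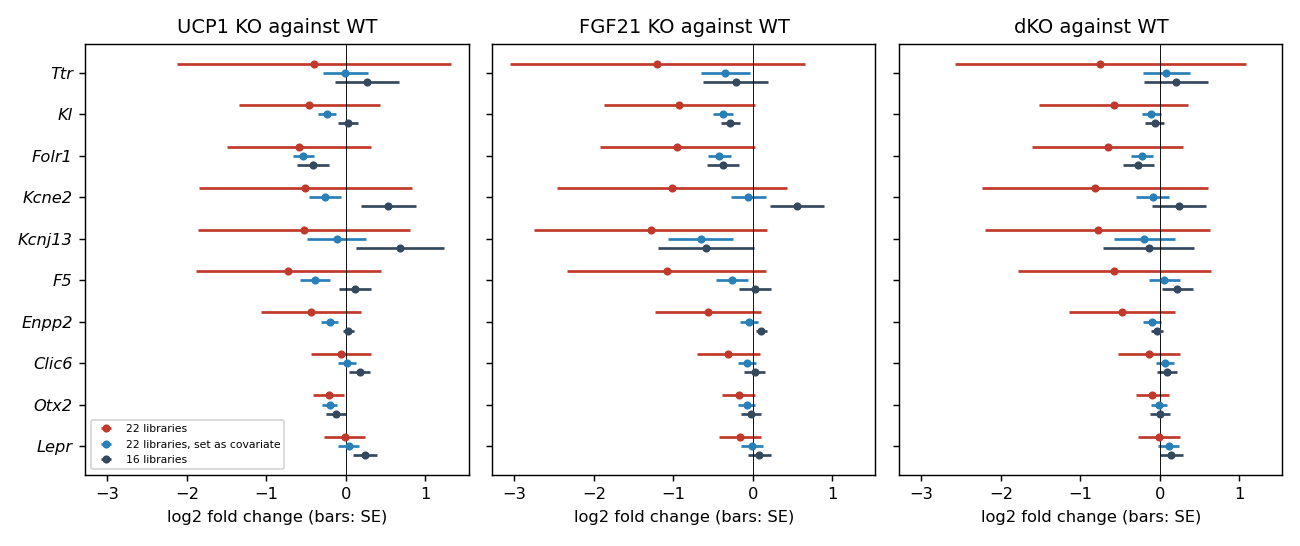
Log2 fold change of 10 plexus genes for each genotype against WT (points; bars are ± 1 SE) from all 22 libraries, from 22 libraries with the choroid plexus set as covariate, and from the 16 libraries without. Bars for Ttr shrink from 1.72 to 0.28 in UCP1 KO once the set is in the fit. This was fixed in advance, since the set was chosen on genes of this kind. No gene shown was called in any of the 3 fits.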

How the data were processed

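The 22 hypothalamus libraries were made from poly(A) RNA with a stranded kit and read as pairs of 100 bp, per the labels' protocols. The submitters' processing notes name STAR, HTSeq and the build mm10. Versions and the strand setting of the counting are not stated in what was used here. Each library has 1 deposited table of unnormalized read counts by gene. Of 32765 rows 66 repeated names were summed, and 2 rows naming no single gene were left out (up to 0.22% of a library).

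The fit used edgeR 4.0.16 in R 4.3.3, with TMM scaling (factors 0.990 to 1.01), filterByExpr (18020 genes kept) and the quasi-likelihood F test with BH adjustment over all genes tested. The choroid plexus set was fitted beside genotype, and values are CPM on TMM library sizes. The SE is the log2 fold change divided by the square root of F. A gene was called between sets when it was at least 2-fold different with no overlap of libraries. Genotype contrasts were called at an adjusted p under 0.05. Positions and promoters come from RefSeq (GRCm38.p6). The fits were tested on simulated data with 200 changed genes.

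The members and the 33 gene lists were chosen with earlier results of these data known. The text names Ttr, Kl and Folr1, the 15 largest higher and up to 10 lower genes of at least 1 CPM without overlap, and per list up to 6 called members or the member with the largest difference. Other named genes were chosen after their values were seen. The labels do not say that libraries came from separate mice, so p-values measure the spread between these libraries. Over 50 pairs of replicates, chi-squared per degree of freedom ran from 3.63 to 26.5, so every pair differed by more than counting error. Alternatives were DESeq2 1.42.0, RLE scaling, no filter, no covariate, list genes left out of the library sizes, a 4-fold threshold, the set or log2 Ttr as covariate, a pseudocount of 1 and each of 22 libraries left out in turn.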

Additional observations from a re-analysis of the deposited data

Results flagged for a closer look

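The 3 marker genes had a library far from its group in 2 genotypes, and this restates how the choroid plexus libraries were chosen. In the dKO group replicate 1 stood apart with 1516 CPM of Ttr, 70.5 CPM of Kl and 11.5 CPM of Folr1. In the FGF21 KO group it was replicate 4, with 1103 CPM of Ttr, 52.6 CPM of Kl and 8.62 CPM of Folr1. WT and UCP1 KO each hold 2 such libraries, so that no single one of them lies alone.

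Inside the 6 libraries, 2 of 54 named genes had a library far from the other 5, where chance flags about 1 in 20 groups. Prl, the pituitary hormone prolactin, lay at 74.6 CPM in UCP1 KO replicate 3, with 0.0814 to 13.5 CPM in the others. Tph1, the first enzyme of serotonin and melatonin synthesis and a pineal gene, lay at 1.73 CPM in WT replicate 1, with 0.0214 to 0.551 CPM in the others.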

How the results depend on the processing

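The 61 genes at least 2-fold higher without overlap became 35 at a 4-fold threshold (log2 fold change of 2), and numbered 60 to 66 with RLE scaling, no low-count filter, DESeq2, no genotype covariate or plexus genes left out of the library sizes. None of these settings gave a gene at least 2-fold lower without overlap. Leaving out each of the 22 libraries in turn gave 54 to 66 higher and 0 to 0 lower genes, and log2 differences of 6.00 to 6.14 for Ttr, 2.89 to 3.02 for Kl and 2.98 to 3.09 for Folr1. Fewer genotype calls were made without the 6 libraries (6 in UCP1 KO, 0 in FGF21 KO, 6 in dKO), a fit with fewer samples, and more with DESeq2 (14, 18 and 22 in the same order; the cause was not tested). Leaving out a library gave 7 to 12 calls in UCP1 KO, 0 to 16 in FGF21 KO (0 without WT replicate 1, 3 or 4 or FGF21 KO replicate 1, 2 or 3; 2 or 3 without WT replicate 6, dKO replicate 2 or 3 or FGF21 KO replicate 5; 16 without dKO replicate 5) and 5 to 14 in dKO (5 without dKO replicate 1). Without UCP1 KO replicate 5 and dKO replicate 1, an alternative added after seeing the data, 65 genes were higher and 8, 1 and 8 were called. With a pseudocount of 1 the correlations of Ttr with Kl and Folr1 were 0.831 and 0.948 in the 6 libraries. With the median of the 16 as background, the ratios to Ttr were 40.3 for Kl and 6.55 for Folr1, and the other ratios were not recomputed. No paired analysis was possible because the labels carry no replicate numbers. Genes such as Slc16a8 and Defb11, below 1 CPM in the 6 libraries, rest on few counts.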

Other observations

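Meningeal genes were highest in a library outside the choroid plexus set. UCP1 KO replicate 5 had the highest level of all 22 libraries for 11 of 12 genes of this list, and for 9 of 12 both it and dKO replicate 1 stood above the other 20. Ptgds, the prostaglandin D synthase of leptomeninges and plexus, lay at 1530 CPM in UCP1 KO replicate 5, 632 CPM in dKO replicate 1 and 253 to 376 CPM elsewhere. UCP1 KO replicate 5 also held 63.5 CPM of the chemokine gene Cxcl13, with 0.0773 to 0.487 CPM in the other 21 libraries, and the highest Gfap at 468 CPM. Its Ttr was 16.7 CPM, in the range of the 16. In this library Slc13a4, Igf2 and Lepr reached the range of the 6 at 10.0, 64.8 and 7.87 CPM while Kl (9.74 CPM) and Folr1 (1.17 CPM) did not.

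Pituitary hormones and cortical genes marked other libraries. Gh lay at 201 CPM in UCP1 KO replicate 3, 56.9 in UCP1 KO replicate 2, 28.9 in WT replicate 5 and 19.6 in FGF21 KO replicate 5, and Prl at 74.6, 13.5, 7.03 and 5.82 CPM in the same order. Neurod6 lay at 17.4 CPM in WT replicate 5, 13.5 in FGF21 KO replicate 4 and 12.9 in UCP1 KO replicate 2, with 0.918 to 1.75 CPM elsewhere, and Neurod2 followed the same 3 libraries at 14.2, 13.3 and 10.95 CPM. The 6 choroid plexus libraries thus included some with and some without these genes.

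Among the lowest log2 differences, 2 transcripts known by sequence names split the 16 libraries outside the set. AK220016 lay at 97.7 to 110 CPM in WT replicate 6, dKO replicates 2, 3 and 4 and FGF21 KO replicate 2, and at 5.80 to 10.1 CPM in the other 17. AK187054 lay at 39.0 to 43.4 CPM in the same 5 libraries and at 0.216 to 0.953 CPM elsewhere. None of the 5 belonged to the choroid plexus set.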
